A study of Mus musculus with 7 samples.

Results

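The 33 transcripts described here mark the neurons and glia of the inner retina, the layers between the photoreceptors and the vitreous. They were taken from a list of published cell markers, 8 for bipolar cells, 6 for ganglion cells, 8 for amacrine cells, 2 for synaptic release in general, 7 for Müller glia and 2 for astrocytes. All 33 had a probe set annotated to exactly 1 gene symbol, out of 19938 genes measured, and where a gene had more than 1 such probe set the brightest was used. They were measured in RNA labelled as retinal pigment epithelium (RPE), the pigmented layer behind the photoreceptors, and compared there between the genotypes.

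All mice were of the strain C57Bl/6J, and 4 samples were wild type and 3 carried Mfrp rd6, with 1 whole-transcript array for each sample. Mfrp encodes a membrane protein made by the RPE, and the germline rd6 allele is known to cause retinal degeneration. Per the labels' protocols, eyecups without cornea and lens were shaken until the RPE detached, and removal of the neural retina is not mentioned. The age field gives 8 weeks for every wild-type sample and 12 weeks for every Mfrp rd6 sample, in which case age and genotype cannot be told apart, whereas the growth protocol gives 12 weeks for Mfrp rd6 replicate 1 alone. Whether replicates are separate animals is not stated in the labels, and p-values therefore cover the spread among these samples only, which could be technical.

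Array medians lay between 6.52 and 6.58 on the log2 scale. The probe set shared by Mfrp and its neighbour C1qtnf5 read 11.36, 11.22, 11.49 and 11.26 in wild type and 11.20, 11.23 and 11.09 in Mfrp rd6, and as it covers 2 genes it does not check the genotype labels. The mean of the 18 RPE markers was bright and near-equal, at 11.43 ± 0.06 in wild-type arrays (SD, n = 4) and 11.41 ± 0.03 in mutant arrays (SD, n = 3). Single markers departed from this: Best1 was dim, at 5.885 and 5.823, and Lrat fell (-0.40, limma adjusted p = 0.0277). Of 20 microglia and macrophage markers 16 rose, led by Ly86 (3.41, limma adjusted p = 4.9e-06), and their mean was 1.86 log2 units higher in Mfrp rd6. The mean of 18 skeletal muscle markers was 1.30 higher and that of 12 choroidal endothelial markers 0.45 higher, with 2 of the 12 past the threshold, led by Plvap (0.57, limma adjusted p = 0.0459). None of 10 lens and ciliary body markers passed, and their mean was 7.87 in Mfrp rd6 replicate 2 and 6.51 to 6.75 on the other arrays. The mean of 16 rod markers was 7.58 ± 0.48 in wild type and 7.11 ± 0.19 in Mfrp rd6. Precision is limited by the small number of arrays: across genes the log2 change had a median standard error of 0.09.

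In the inner retina, bipolar cells carry the photoreceptor signal to ganglion cells, whose axons form the optic nerve, while amacrine cells shape that signal with inhibitory transmitters. ON bipolar cells sense glutamate with the receptor Grm6, which controls the cation channel Trpm1. Müller glia span the retina, take up glutamate through Slc1a3, convert it with the glutamine synthetase Glul and move potassium and water through Kcnj10 and Aqp4. Several of these genes are also used outside the retina: Trpm1 is known in pigment cells, the neurofilaments and Snap25 in peripheral nerve, and Tfap2a and Tfap2b in surface epithelium.

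Trpm1 is shown by its sequence because it is the member that pigment cells are known to make, and because its gene holds the microRNA miR-211, which had a probe set of its own on these arrays. The RefSeq promoter table (GRCm38.p6) lists 2 starts for Trpm1, both on the plus strand, and the 250 bases before each are given 5′ to 3′. Capitals mark the letters CATGTG and CACGTG, the E-box forms that the pigment cell factor MITF is known to bind, and TAATCC, the core read by OTX and CRX factors, each searched on both strands.
Trpm1, chr7:64153585-64153834: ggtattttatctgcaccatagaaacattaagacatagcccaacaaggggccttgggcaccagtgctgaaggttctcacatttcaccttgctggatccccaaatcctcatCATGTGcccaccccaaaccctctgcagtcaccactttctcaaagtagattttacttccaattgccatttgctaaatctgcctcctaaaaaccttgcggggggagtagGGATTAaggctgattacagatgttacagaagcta
Trpm1, chr7:64185209-64185458: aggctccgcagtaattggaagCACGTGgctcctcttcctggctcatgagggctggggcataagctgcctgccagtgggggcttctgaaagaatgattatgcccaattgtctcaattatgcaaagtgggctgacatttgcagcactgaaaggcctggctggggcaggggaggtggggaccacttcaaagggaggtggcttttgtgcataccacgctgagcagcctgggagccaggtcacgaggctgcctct
The stretch before the upstream start held CATGTG 141 bases and TAATCC (on the minus strand) 34 bases ahead of the start, and that before the downstream start held CACGTG 229 bases ahead. Among all 32544 promoter windows of this length, 12.3% held CATGTG, 6.03% CACGTG and 6.25% TAATCC. Of the 24 members with an entry, which had 35 windows in all, Pcp2 also held CATGTG, Abca8a held CACGTG, and Cabp5, Gad1 and Isl1 held TAATCC. A match of letters describes the sequence and does not show that a factor binds there.

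The microRNA within Trpm1 shares its seed (bases 2 to 8, in capitals) with miR-204, a microRNA known in the RPE, and the mature forms differ at 1 base. The RefSeq sequences (GRCm38.p6, plus strand) are given for the 5p arms.
miR-211, chr7:64205831-64205852: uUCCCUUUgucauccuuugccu
miR-204, chr19:22750610-22750631: uUCCCUUUgucauccuaugccu

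None of the 33 transcripts passed the test between Mfrp rd6 and wild type: 0 rose and 0 fell at an adjusted p under 0.05 (limma, Benjamini-Hochberg over all genes), against a background of 2.15% of the 19938 genes tested, 1.34% higher and 0.813% lower. At an unadjusted p under 0.05 there were 7 members (21.2%), namely Trpm1, Prkca, Slc17a6, Nefl, Calb2, Snap25 and Syt1, where the background was 15.4%. The arrays of the groups did not overlap in 3 members (9.09%), below the background of 15.3%. These were Trpm1, with every Mfrp rd6 array above (background 5.52%), and Prkca and Nefl, with every Mfrp rd6 array below (background 9.82%). The change was negative in 21 members and positive in 12, with a median of -0.07, and over all genes 56.5% were negative with a median of -0.02. In a bulk sample such as this, fewer cells of a type and less RNA per cell cannot be told apart.

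**Figure D1:**
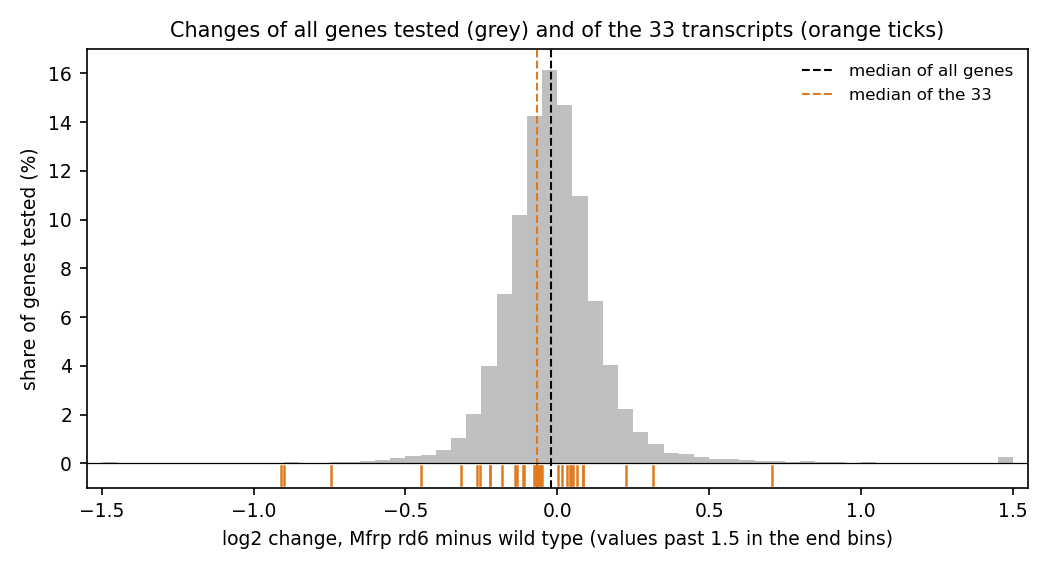
Log2 changes (Mfrp rd6 minus wild type) of all 19938 genes as a histogram of their share in percent, with an orange tick for each of the 33 inner retinal transcripts and dashed lines at the medians. Most ticks lie near the peak of the histogram, and 4 lie beyond 0.5 on either side: Snap25, Nefl and Calb2 on the negative side and Syt1 on the positive side.

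For 24 members the change was within 0.25 log2 units of 0, and for 21 the whole 95% confidence interval lay within 0.5 units. For 5 members, Nefl, Calb2, Snap25, Syt1 and Gfap, the interval reached beyond 1 unit, so that these arrays bound their changes only loosely.

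**Figure D2:**
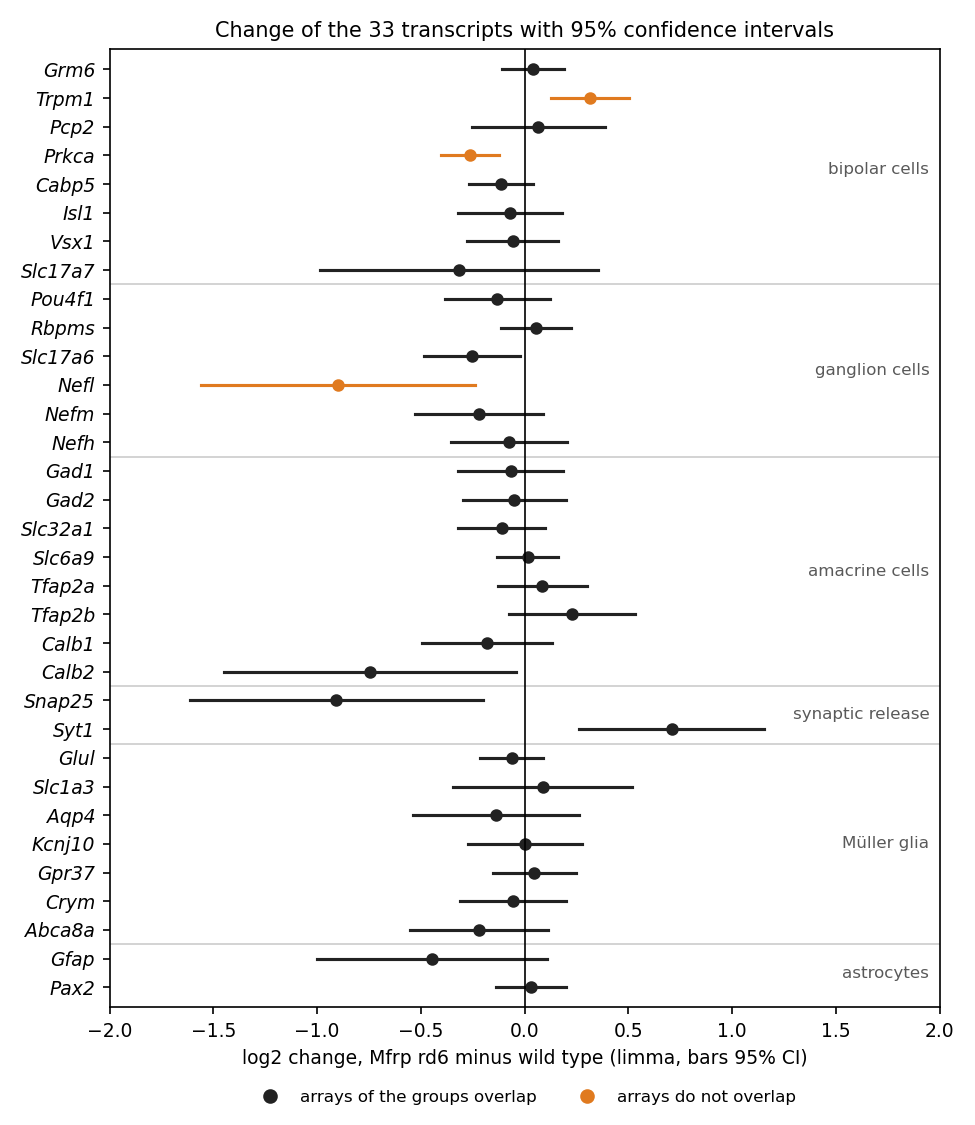
Log2 change of each of the 33 transcripts (limma, Mfrp rd6 minus wild type, points) with its 95% confidence interval (bars), grouped by the cell type each marks. Orange marks the 3 transcripts whose arrays do not overlap between the groups, Trpm1, Prkca and Nefl; the widest intervals are those of Snap25, Calb2, Slc17a7 and Nefl.

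The levels of some members were low, in a share near that of all genes. As a guide to dim signal, the central 95% of the mean values of 1015 olfactory receptor genes, which the eye is not known to use widely, ran from 2.67 to 5.92, although probe sets differ in brightness and such a range is no detection test. Of the 33 members 11 had a mean over the 7 arrays inside it: Grm6, Cabp5 and Isl1 of the bipolar markers, Pou4f1, Slc17a6, Nefl and Nefm of the ganglion cell markers, and Gad1, Gad2, Calb1 and Calb2 of the amacrine markers. Of all 19938 genes tested, 6262 had a mean at or below the upper end of that range, so dimness was not particular to the members. None of the 7 Müller glia markers was inside it, and neither were the synaptic genes Snap25 and Syt1. Grm6, Pou4f1 and Gad2, each closely tied to its cell type, were among those 11. Other bipolar and amacrine markers lay just above the range, namely Vsx1 (6.09), Pcp2 (6.28) and Slc32a1 (6.06). The brighter members include genes that other cells of the eye also make, and the cells their RNA came from were not tested. RMA can narrow differences near the floor, so those of the dim members may be understated, which was not tested.

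**Figure D3:**
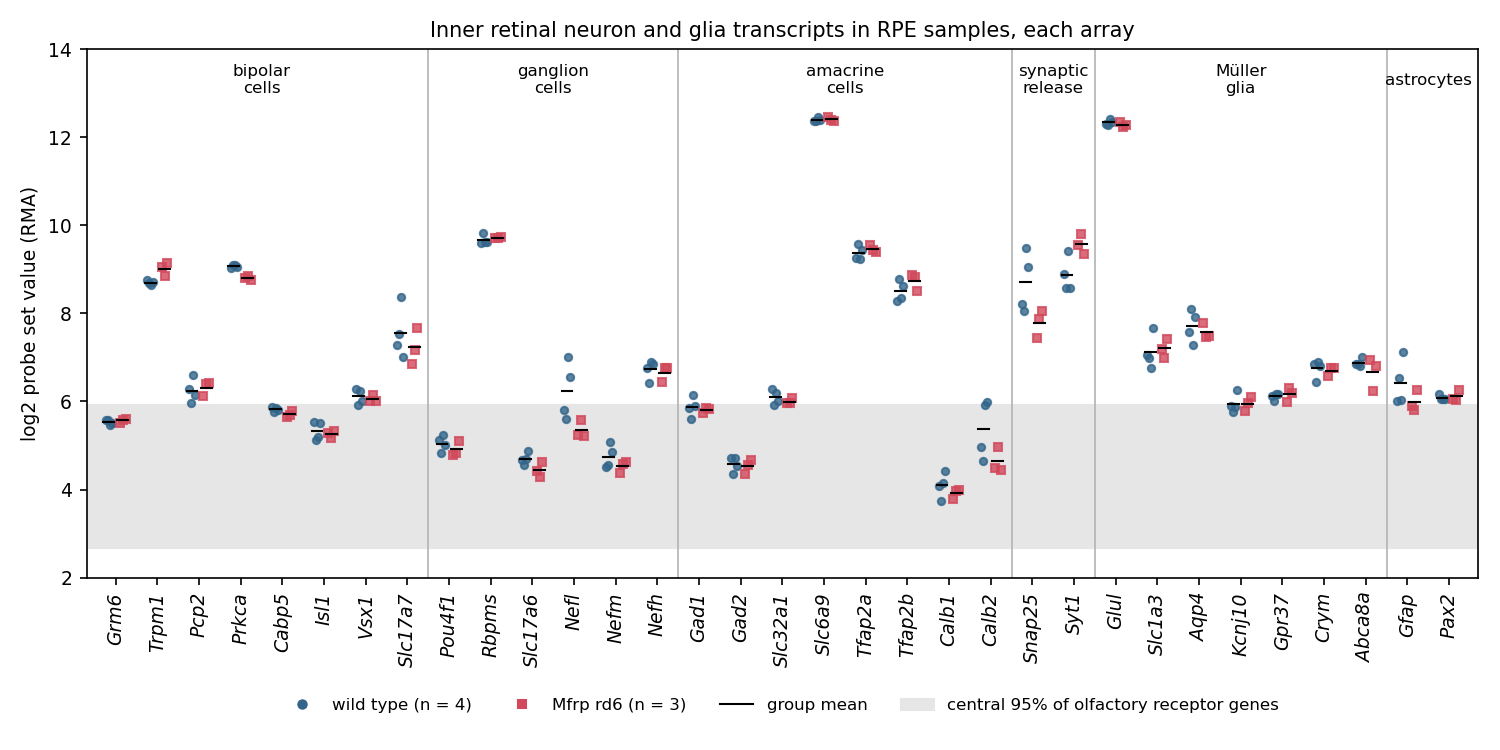
Log2 probe set value on each array (blue circles, 4 wild type; red squares, 3 Mfrp rd6) with group means (black lines) for the 33 transcripts, and the central 95% of olfactory receptor genes shaded. The points of most genes lie close together in both groups, while Slc17a7, Nefl, Calb2, Snap25 and Gfap spread widely in wild type.

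Among the bipolar cell genes, Trpm1 and Prkca stood furthest apart between the groups relative to their spread. Trpm1 read 8.76, 8.68, 8.64 and 8.71 in wild type and 9.05, 8.84 and 9.15 in Mfrp rd6. All 3 mutant arrays lay above all 4 wild-type arrays, with a log2 change of 0.32 (95% confidence interval 0.13 to 0.50), which did not pass (limma, adjusted p = 0.106). Trpm1 did pass when the variance was modelled with a trend and robust moderation (adjusted p = 0.0473) and in a test restricted to genes brighter than the median gene (adjusted p = 0.0492), and its adjusted p ranged up to 0.353 over the 19 alternatives. The 8 melanocyte markers, measured on the same arrays, had a median change of 0.10, with 5 changes positive and 3 negative. Of the 8, 1 passed the threshold, as higher, the glycoprotein Gpnmb (0.40, limma adjusted p = 0.015). Their summed levels (log2) were 13.80 to 13.93 in wild type and 13.98 to 14.07 in Mfrp rd6. The 18 RPE markers had a median of -0.02, with 8 changes positive and 10 negative. Of the 18, 0 passed the threshold as higher and 1 as lower, Lrat, the enzyme that forms retinyl esters from retinol (-0.40, limma adjusted p = 0.0277). Their summed levels were 16.21 to 16.32 in wild type and 16.14 to 16.23 in Mfrp rd6. Dct, Mlana, Pmel and Tyr are in both the melanocyte and the RPE list. The part of pigment cell RNA in the values of Trpm1 and Gpnmb, or of RNA from other cells, was not tested. On the same arrays 16 of 20 microglia and macrophage markers rose.

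The probe set for Mir211, inside the Trpm1 gene, read 7.72, 7.08, 7.05 and 7.23 in wild type and 7.38, 7.34 and 7.70 in Mfrp rd6. Its groups overlapped, with a change of 0.20 (SE 0.16, limma adjusted p = 0.62). Wild-type replicate 1 was the highest of all 7 arrays for Mir211, whereas for Trpm1 it lay below every mutant array. The probe set for Mir204 read 9.53, 9.02, 8.92 and 8.58 in wild type and 9.46, 9.55 and 8.93 in Mfrp rd6, with a change of 0.30 (SE 0.21, limma adjusted p = 0.569). Such probe sets measure the RNA around the hairpin and not the mature microRNA.

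Prkca, the protein kinase C isoform used to stain rod bipolar cells, is made in many other cells too. It read 9.04, 9.09, 9.09 and 9.06 in wild type and 8.80, 8.85 and 8.77 in Mfrp rd6. The wild-type arrays agreed closely, and all mutant arrays lay below them, with a log2 change of -0.26 (95% confidence interval -0.40 to -0.12), which did not pass over all genes (limma, adjusted p = 0.0705). Prkca passed in 4 of 19 alternatives, namely among genes averaging at least 6 (adjusted p = 0.0359), among genes brighter than the median gene (adjusted p = 0.0231), under the variance trend (adjusted p = 0.0295) and under array weights (adjusted p = 0.0451). Over the alternatives its change stayed between -0.33 and -0.24.

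The remaining bipolar markers showed little. Grm6, the glutamate receptor of ON bipolar cells, lay between 5.46 and 5.58 in wild type and between 5.52 and 5.61 in Mfrp rd6, a change of 0.04 (95% confidence interval -0.11 to 0.19). Pcp2, a regulator of G proteins in ON bipolar cells, differed by 0.07, the calcium sensor Cabp5 by -0.11, and the transcription factors Isl1 and Vsx1 by -0.07 and -0.06, all with overlapping arrays. Of 20 further bipolar genes 0 rose and 0 fell, with a median of 0.00.

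Slc17a7 loads glutamate into synaptic vesicles and serves photoreceptors as well as bipolar cells. It read 7.29, 7.54, 8.37 and 7.0 in wild type and 6.84, 7.18 and 7.68 in Mfrp rd6. Wild-type replicate 3 was the highest, wild-type replicate 4 lay below 2 of the mutant arrays, and at -0.32 (95% confidence interval -0.99 to 0.35) the change missed the threshold (limma, adjusted p = 0.691). The rod marker mean on the same arrays was 7.47, 7.52, 8.24 and 7.09 in wild type and 6.90, 7.18 and 7.26 in Mfrp rd6, the same array being highest. With that mean as a covariate the change of Slc17a7 had the other sign, 0.28 (limma, adjusted p = 0.465), and without wild-type replicate 3 it was -0.04 (adjusted p = 0.954). The change passed in none of these fits, and the part of rod RNA in the values of Slc17a7 was not tested.

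Among the ganglion cell markers the neurofilament light chain Nefl had the widest difference. It read 5.81, 5.60, 7.01 and 6.55 in wild type and 5.23, 5.58 and 5.22 in Mfrp rd6. Wild-type replicates 3 and 4 were far above the others, while replicate 2 was only just above the highest mutant array. The change was -0.90 (95% confidence interval -1.56 to -0.24), a mutant to wild-type ratio of 0.536, and missed the threshold (limma, adjusted p = 0.182), as in each of the 17 alternatives that tested Nefl (adjusted p of 0.0706 to 0.528). Without wild-type replicate 3 it was -0.64. With the muscle marker mean in the model, an alternative added after seeing the data, it was -1.98 (limma, adjusted p = 0.146). The muscle marker mean did not overlap between the groups, so that model separates it poorly from genotype.

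The other neurofilament subunits differed less. Nefm, the medium chain, read 4.51, 4.55, 5.08 and 4.85 in wild type and 4.38, 4.58 and 4.62 in Mfrp rd6, a change of -0.22 (95% confidence interval -0.53 to 0.09). Here too wild-type replicates 3 and 4 were the 2 highest arrays, though the level was in the dim range. Nefh, the heavy chain, differed by -0.08 (95% confidence interval -0.36 to 0.21) and lay between 6.43 and 6.89 over all arrays.

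Slc17a6, the vesicular glutamate transporter of ganglion cells, read 4.67, 4.55, 4.69 and 4.88 in wild type and 4.41, 4.29 and 4.63 in Mfrp rd6. The groups overlapped, and the change, -0.25 (95% confidence interval -0.49 to -0.02), missed the threshold (limma, adjusted p = 0.274). Pou4f1, a transcription factor of ganglion cells, differed by -0.13 at a dim level. Rbpms, an RNA-binding protein that labels ganglion cells in the retina and is made in muscle and vessel walls elsewhere, was brighter, at 9.67 ± 0.11 (SD, n = 4) and 9.72 ± 0.01 (SD, n = 3). Of 16 further ganglion cell genes 0 passed in either direction, with a median of -0.12. Among those 16, 1 gene had every mutant array below every wild-type array, the surface protein Thy1 (-0.31, limma adjusted p = 0.198), where 9.82% of all genes did. Another 1 had every mutant array above, the junction protein Jam2 (0.23, limma adjusted p = 0.242), where 5.52% of all genes did. Thy1 and Jam2 were named after their values were seen.

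Of the 8 amacrine cell markers, Gad1, Gad2, Calb1 and Calb2 lay within the range of the olfactory receptor genes and the other 4 above it. Gad1 and Gad2, which make GABA from glutamate, differed by -0.07 and -0.05, and Slc32a1, which loads GABA and glycine into vesicles, by -0.11. All 3 had overlapping arrays. Slc6a9, the glycine transporter GlyT1, read 12.36, 12.36, 12.46 and 12.39 in wild type and 12.46, 12.40 and 12.36 in Mfrp rd6. Its change of 0.01 had a confidence interval from -0.13 to 0.16. The transcription factors Tfap2a and Tfap2b read 9.38 ± 0.16 and 8.51 ± 0.23 in wild type (SD, n = 4) and 9.46 ± 0.09 and 8.74 ± 0.19 in Mfrp rd6 (SD, n = 3), changes of 0.09 and 0.23. On the same arrays the 12 surface epithelium markers had a median change of -0.13, with 0 past the threshold in either direction. Of the 12 changes 10 were negative and 2 positive. Summed levels were 15.74 to 15.83 in wild type and 15.66 to 15.70 in Mfrp rd6.

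Of the calcium-binding proteins of amacrine cells, Calb2 (calretinin) was the more variable. It read 4.97, 4.64, 5.93 and 5.99 in wild type and 4.50, 4.97 and 4.44 in Mfrp rd6. Wild-type replicates 3 and 4 were the highest of all, and the other 2 wild-type arrays lay within the mutant range. The change was -0.75 (95% confidence interval -1.45 to -0.04, limma adjusted p = 0.292). Calb1 (calbindin), dim on every array, differed by -0.18. Of 18 further amacrine genes 0 passed in either direction, with a median of -0.03.

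The 2 genes of synaptic release had changes of opposite sign, and neither passed. Snap25, a membrane protein of the complex that fuses vesicles, read 8.22, 8.06, 9.48 and 9.05 in wild type and 7.45, 7.87 and 8.06 in Mfrp rd6. Wild-type replicates 3 and 4 were again the highest, and wild-type replicate 2 equalled Mfrp rd6 replicate 3. The change was -0.91 (95% confidence interval -1.62 to -0.20), a ratio of 0.532, and missed the threshold (limma, adjusted p = 0.204), as in each of the 19 alternatives, where it lay between -1.70 and -0.57.

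Syt1, the calcium sensor that triggers release, read 8.89, 8.57, 9.42 and 8.57 in wild type and 9.56, 9.80 and 9.35 in Mfrp rd6. Wild-type replicate 3 lay within the mutant range and the other wild-type arrays below it. The change was 0.71 (95% confidence interval 0.26 to 1.15), a ratio of 1.63, and missed the threshold (limma, adjusted p = 0.122). Syt1 passed in 4 of 19 alternatives: without wild-type replicate 3 (0.89, adjusted p = 0.0171), without both that array and Mfrp rd6 replicate 2 (0.78, adjusted p = 0.0443), under array weights (0.86, adjusted p = 0.0446) and with the rod marker mean in the model (1.02, adjusted p = 0.0376). With the muscle marker mean in the model the change of Syt1 was -0.07 (limma, adjusted p = 0.974). That mean did not overlap between the groups (6.71 to 7.83 in wild type, 7.89 to 8.78 in Mfrp rd6). The model therefore separates it poorly from genotype, and the source of the Syt1 change cannot be read from this fit.

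Within each array the difference Snap25 minus Syt1 was -0.67, -0.51, 0.06 and 0.48 in wild type and -2.11, -1.93 and -1.29 in Mfrp rd6. All mutant arrays lay below all wild-type arrays in this difference, a comparison chosen after the values were seen and therefore not tested. The skeletal muscle mean was 6.71, 6.85, 7.83 and 6.95 in wild type and 8.51, 8.78 and 7.89 in Mfrp rd6. Wild-type replicate 3 was the highest wild-type array and Mfrp rd6 replicate 2 the highest of all, for muscle as for Syt1. The other wild-type arrays were ordered differently. Replicate 1 was the lowest for muscle (6.71), whereas for Syt1 it read 8.89, above replicates 2 and 4. Of the 18 muscle markers 4 rose and 0 fell, led by the calcium pump Atp2a1 (2.21, limma adjusted p = 0.0422), with summed levels of 11.07 to 12.50 in wild type and 12.59 to 13.70 in Mfrp rd6. The part of muscle or nerve RNA in the values of Syt1, Snap25 and Nefl was not tested. Of 17 further synaptic and neuronal genes 0 passed, with a median of -0.18. In 5 of the 17 every mutant array lay below every wild-type array, a larger share than the 9.82% over all genes. In 0 of the 17 did every mutant array lie above, against 5.52% of all genes. The difference in shares was not tested.

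**Figure D4:**
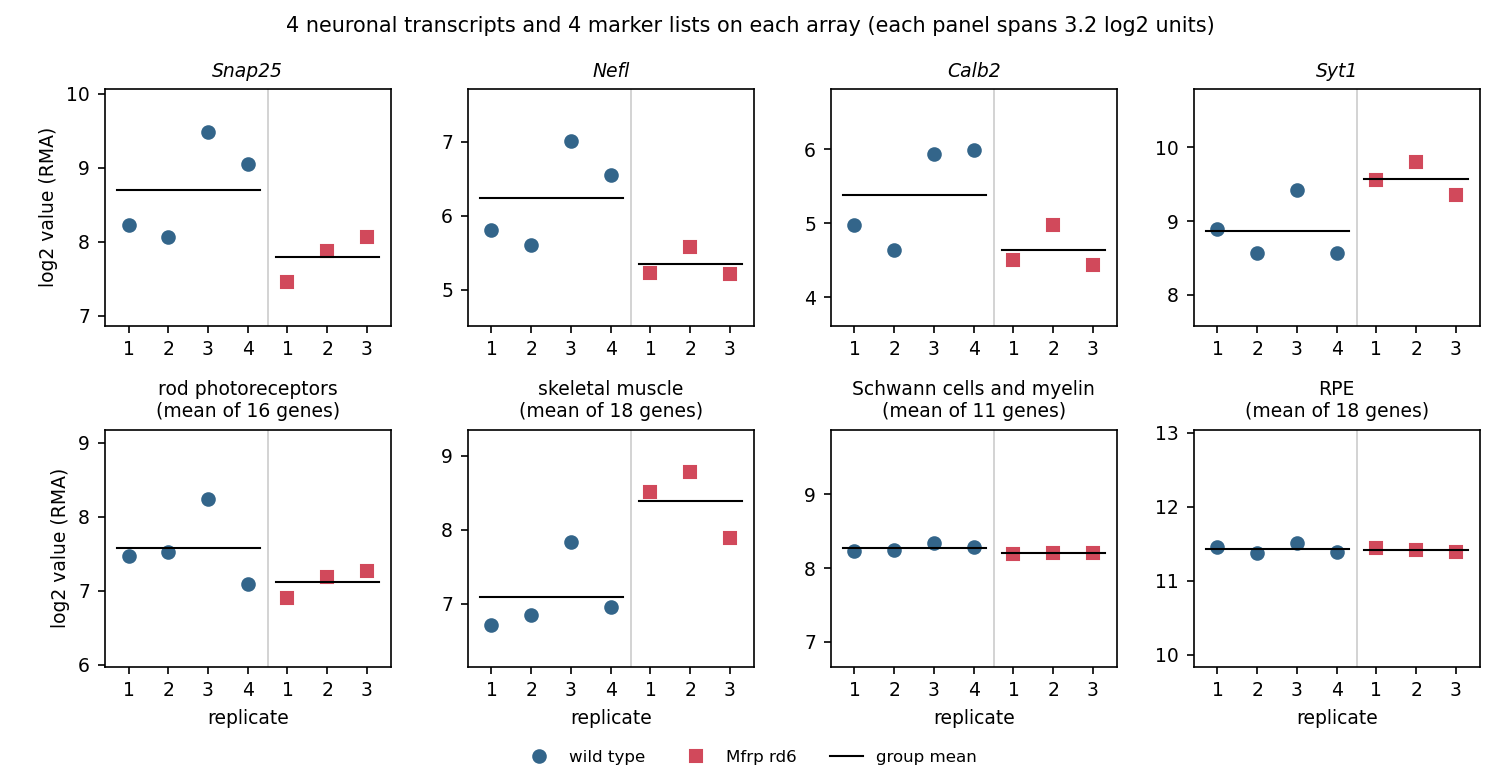
Log2 values on each array (wild-type replicates 1 to 4, blue circles; Mfrp rd6 replicates 1 to 3, red squares; black lines, group means) of Snap25, Nefl, Calb2 and Syt1, above the means of 4 marker lists. Wild-type replicates 3 and 4 are high for Snap25, Nefl and Calb2, of the wild-type arrays only replicate 3 stands out for the rod and muscle lists, and the Schwann cell and RPE lists are flat.

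The wild-type spread of a few members was large. The SD over the 4 wild-type arrays was above 0.5 in Slc17a7, Nefl, Calb2, Snap25 and Gfap, 5 of 33 members (15.2%), as against 67 of all 19938 genes (0.336%). Of those 67 genes, 10 were rod markers and 10 skeletal muscle markers. The arrays that were high differed by gene: replicate 3 for Slc17a7 and the rod markers, replicates 3 and 4 for Nefl, Calb2 and Snap25, and replicates 4 and 2 for Gfap. Wild-type replicate 4 had the lowest rod mean of the wild-type arrays (7.09), with Snap25 at 9.05 and Calb2 at 5.99. These are values of 1 array, and the source of the wild-type spread was not tested. The Schwann cell and myelin markers, 0 of 11 of which passed, had summed levels of 13.54 to 13.65 in wild type and 13.43 to 13.51 in Mfrp rd6, and no probe set reads 0 on this scale.

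The Müller glia markers were close to equal in the groups. Glul, the glutamine synthetase, read 12.34 ± 0.06 (SD, n = 4) and 12.28 ± 0.06 (SD, n = 3), a change of -0.06 (95% confidence interval -0.21 to 0.09). A second probe set for Glul had means of 12.30 and 12.32, a difference of the other sign. Slc1a3, the glutamate transporter GLAST, read 7.05, 6.99, 6.76 and 7.67 in wild type and 7.20, 6.99 and 7.42 in Mfrp rd6, a change of 0.09 (95% confidence interval -0.34 to 0.52). Its highest array was wild-type replicate 4.

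Aqp4, the water channel of glial endfeet, read 7.57, 8.10, 7.28 and 7.91 in wild type and 7.78, 7.47 and 7.48 in Mfrp rd6, a change of -0.14 (95% confidence interval -0.54 to 0.26). The mutant arrays lay inside the wild-type range. The potassium channel Kcnj10 differed by 0.00 (95% confidence interval -0.27 to 0.28), the receptor Gpr37 by 0.05, the thyroid hormone binding protein Crym by -0.06 and the lipid transporter Abca8a by -0.22. Abca8a was lowest in Mfrp rd6 replicate 2, at 6.24, and without that array its change was -0.01.

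Gfap, the intermediate filament of astrocytes that Müller glia are known to raise in a stressed retina, had a lower mean in the mutant arrays, with overlap. It read 6.02, 6.53, 6.03 and 7.13 in wild type and 5.89, 5.80 and 6.25 in Mfrp rd6. Wild-type replicate 4 was the highest, and the change was -0.45 (95% confidence interval -1.0 to 0.11), short of the threshold (limma, adjusted p = 0.439). Pax2, a transcription factor of optic nerve astrocytes, lay between 6.04 and 6.25 on all arrays and differed by 0.03. Of 24 further Müller glia and astrocyte genes 0 rose and 1 fell, the folate enzyme Aldh1l1 (-0.58, limma adjusted p = 0.0323), which is not particular to glia, and the median was -0.07.

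The nearest other retinal lists differed in their counts. Of 16 rod markers 0 passed, all 16 had a negative change, the median was -0.49, and summed levels were 13.22 to 13.87 in wild type and 13.07 to 13.19 in Mfrp rd6. Of 10 cone markers 2 rose and 1 fell, with a median of -0.05 and the G protein subunit Gnb3, which ON bipolar cells also use, at 2.61 (limma, adjusted p = 3e-05). Of 6 horizontal cell markers 0 rose and 1 fell, the septin Septin4 (-0.41, limma adjusted p = 0.026), with a median of -0.01. The difference between lists was not tested.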

How the data were processed

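RNA labelled as RPE from 4 wild-type and 3 Mfrp rd6 samples was measured on Affymetrix arrays. The authors deposited log2 values, 1 per probe set and array, and per the submitters' processing notes these were made with Affymetrix Expression Console and RMA, which corrects background, equalises the arrays' distributions and summarises probes. Their versions are not stated. Gene names came from a platform annotation dated 2016: of 35556 probe sets, 21789 had 1 symbol, 1621 several and 12146 none. The highest-mean probe set was taken for the 999 genes with more than 1, which left 19938 genes. No 2 arrays held identical values.

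The contrast of Mfrp rd6 against wild type was fitted for all genes by lmFit and eBayes of limma 3.58.1 under R 4.3.3, with no block, no filter and 5 residual degrees of freedom, and Benjamini-Hochberg adjustment over all genes at 0.05. The procedure was tested on simulated data with independent noise for each gene and array and 50 changed genes at each size. It called 4% of true changes of 0.25 log2 units, 50% of those of 0.5 and 96% of those of 1. Small changes in the members could therefore go uncalled. All members were to be named, and of every other list only the gene past the threshold with the largest change. Other genes were named after their values were seen. Members and lists were chosen with earlier results of these data known, so no list is independent support. A list's summed level is the log2 of its members' summed linear values.

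Alternatives were quantile normalization again, median centring, array weights, filters on dim genes, a robust variance trend, probe sets averaged per gene, all probe sets singly, a block for replicate number, the rod mean as a covariate and leaving out arrays. The skeletal muscle mean as a covariate was added after seeing the data. It did not overlap between the groups, so that fit separates it poorly from genotype. Promoter and microRNA sequences came from RefSeq tables of GRCm38.p6, in which 24 of 33 members had a promoter. Tables and figures used pandas 2.3.3 and matplotlib 3.10.9 under Python 3.11.15.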

Additional observations from a re-analysis of the deposited data

Results flagged for a closer look

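Among the 4 wild-type arrays, the gap between the highest array and the next, divided by the group's range, was above Dixon's 95% critical value in 2 of the 33 transcripts. Rbpms read 9.83 in wild-type replicate 2 and 9.60 to 9.63 in the other 3. Pax2 read 6.16 in wild-type replicate 1 and 6.05 to 6.06 in the other 3. Chance flags about 1 in 20 groups.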

How the results depend on the processing

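The count of 429 changed genes became 718 under a robust variance trend, 679 with array weights, 173 with the rod mean as a covariate, 193 when wild-type replicate 3 was dropped along with Mfrp rd6 replicate 2, 45 with the muscle marker mean as a covariate (added after seeing the data) and 211 to 325 when 1 array was left out. The count of 0 changed inner retinal transcripts became 1 among genes with a mean of at least 6 (Prkca), 2 among genes above the median gene (Trpm1 and Prkca), 2 with the variance trend (Trpm1 and Prkca), 2 with array weights (Prkca and Syt1), 1 with the rod mean (Syt1), 1 without that pair of arrays (Syt1) and 0 to 1 when 1 array was left out (Syt1, without wild-type replicate 3). It was 0 in the other alternatives. With the replicate number as a block 226 genes and 0 of the 33 passed. Same-numbered samples had deviations correlated at -0.30, -0.07 and 0.04, so the numbers were not taken to pair the samples. Of 594 single-transcript results under the 19 alternatives, 584 kept the call and 10 passed only in the alternative. In 40, spread over 18 transcripts that were called in neither fit, the sign differed, and in 15 transcripts the sign was kept throughout. Of the 33, 11 lay in the dim range of olfactory receptor genes, which limits what could be seen in them. Over all 19938 genes, 6262 had a mean at or below the top of that range, a similar share.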

Other observations

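Among the 20 further bipolar genes, Rgs11, the regulator that ends G protein signalling in ON bipolar cells, had the largest change. It read 7.0, 7.01, 7.10 and 7.09 in wild type and 7.36, 7.30 and 7.59 in Mfrp rd6, without overlap, a log2 change of 0.37 that did not pass (limma, adjusted p = 0.06). In the same list 1 gene had every mutant array below every wild-type array, the G protein subunit Gnb5 (-0.20, limma adjusted p = 0.378), and the 20 genes divided into 10 positive and 10 negative changes. Over all genes 5.52% had every mutant array above and 9.82% every mutant array below. Among the 17 further neuronal genes, Kif5a, a kinesin motor of axons, had the largest change and overlapping arrays, at 6.17, 7.26, 6.24 and 8.34 in wild type and 5.94, 6.37 and 6.80 in Mfrp rd6 (-0.63, limma adjusted p = 0.588). Its highest wild-type arrays were replicates 4 and 2. In the same list Ina, a neurofilament partner of Nefl, read 5.74, 5.72, 6.34 and 6.28 in wild type and 5.48, 5.54 and 5.69 in Mfrp rd6 (-0.45, limma adjusted p = 0.213). The highest arrays of Ina were wild-type replicates 3 and 4. Rgs11, Gnb5, Kif5a and Ina were chosen after their values were seen.

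Among the wild-type arrays replicate 2 was the lowest in 19 of the 33 transcripts (57.6%), where it was the lowest in 31.4% of all genes. Replicate 4 was the lowest in 1 (3.03%), against 19.0% of all genes. Low values in replicate 2 were not particular to these transcripts. It had the lowest wild-type mean in every list of further genes and in the horizontal cell, RPE, melanocyte and lens lists. In the rod, cone, microglia, muscle, Schwann cell, endothelial and surface epithelium lists another wild-type array was lowest. Replicate 2 also had the lowest lower quartile and the highest upper quartile of all arrays.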
